A study of Homo sapiens with 4 samples.

Results

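The guanylate-binding proteins GBP1, GBP2, GBP3, GBP4 and GBP5 were followed in RNA-seq data of MV4-11 cells upon knockdown of CEBPG. The family was taken by gene symbol, and all 5 genes had values among the 16490 genes of the table. MV4-11 is a human acute myeloid leukemia (AML) cell line that carries an MLL fusion and an internal duplication of FLT3. There were 2 libraries of control cells, which carry sh-NC and are labelled as having CEBPG, and 2 libraries of cells with CEBPG knockdown, which carry the hairpin sh-CEBPG#3. Both groups are puromycin-selected lentiviral lines of the same cells, and the knockdown rests on 1 hairpin. Whether replicate libraries stem from independent infections is not given in the sources used here, so the p-values measure only the spread between these libraries, which may be technical.

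Guanylate-binding proteins are large GTPases of the dynamin superfamily. Interferon-gamma is their classical inducer, acting through GAS elements and, with factors such as IRF1 and IRF9, through interferon-stimulated response elements (ISREs). In myeloid cells the proteins coat bacteria in the cytosol and vacuoles that hold microbes. They also help to activate caspase-4 and the NLRP3 and AIM2 inflammasomes. GBP1, GBP2 and GBP5 end in a CaaX box to which a lipid is attached, which anchors them in membranes, whereas GBP3 and GBP4 are not known to be anchored in this way.

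The 5 genes lie in one cluster on the minus strand of chromosome 1 (GRCh38.p14), from chr1:89006680-89272860, a stretch of 266.2 kb. Their order is GBP3 (89006680 to 89022866), GBP1 (89052319 to 89065208), GBP2 (89106132 to 89126114), GBP4 (89181144 to 89198942) and GBP5 (89256189 to 89272860). GBP7 lies between GBP2 and GBP4, and GBP6 and the pseudogene GBP1P1 lie beyond GBP5. Levels of GBP6, GBP7 and GBP1P1 were not analysed here. The main annotated transcript has 11 exons in each member except GBP5, where it has 12.

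Promoter sequences from RefSeq (GRCh38.p14), running from 250 bases before to 50 bases after the start of the gene, were at hand for GBP1, GBP3 and GBP4, and not for GBP2 and GBP5. They were searched on both strands for the ISRE core GAAANNGAAA, which reads TTTCNNTTTC on the other strand, and for the GAS motif TTCNNNGAA. The ISRE core was found in 3 of the 3 promoters and in 3.57% of the 35116 promoters of this length. The matches are shown because ISREs are the elements through which interferon is known to reach these genes, with the 30 bases around each match 5′ to 3′ on the strand of the gene and the motif in capitals.
GBP1, ISRE core, chr1:89065316-89065345, minus strand: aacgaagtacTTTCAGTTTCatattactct
GBP3, ISRE core, chr1:89022845-89022874, minus strand: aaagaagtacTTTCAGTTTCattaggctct
GBP4, ISRE core, chr1:89198927-89198956, minus strand: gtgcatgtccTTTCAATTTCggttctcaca
GBP3, GAS motif, chr1:89022862-89022891, minus strand: actgagtcacTTCCTTGAAagaagtacttt

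GBP1 and GBP3 shared an identical run of 19 bases over this motif, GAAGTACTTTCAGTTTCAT, which was the longest run their promoters had in common. The motif began 127 bases before the start of GBP1, at base 3 of GBP3 and 4 bases before the start of GBP4. The GAS motif was present in GBP3, 15 bases before its start, in no other of the 3 promoters and in 7.66% of all promoters. In comparison, the ISRE core was found in 9 of 17 promoters of other interferon-gamma-induced genes. It was found in 1 of 8 of related GTPases (MX1) and in 0 of 8 of the genes that flank the cluster. The related GTPases include GBP6 and GBP7, whose promoters held neither the ISRE core nor the GAS motif. These matches describe letters in a window and not binding.

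Levels are given in FPKM (fragments scaled to exon length and to the mapped reads of the library), summed over the RefSeq transcripts of a gene. FPKM is a level per length, so genes can be set side by side. Fold changes were taken on the log2(FPKM + 1) scale, which understates the change of genes with low values. They were tested with limma over the 12142 genes that averaged 0.5 FPKM or more, and called at a Benjamini-Hochberg adjusted p under 0.05. The FPKM totals of the 4 libraries ranged from 364353.5 to 389766.2. CEBPG itself was at 30.4 and 33.6 FPKM in control cells and at 19.2 and 17.1 FPKM after knockdown, so 56.8% of the control level remained (log2 fold change -0.78, SE 0.09, adjusted p = 8.88e-05 in limma). Of the 9 myeloid markers looked at, 8 had values, all above 3 FPKM in each library, with LYZ from 567 to 3126 FPKM. These markers also differed between the groups, with LYZ, MPO, CD33 and SPI1 called higher and HOXA9 and MEIS1 called lower. LYZ, a lysozyme, rose by 2.37 on the log2 scale (adjusted p = 1.40e-08 in limma), and MEIS1, a homeobox factor of immature cells, fell by 0.87 (adjusted p = 8.31e-05 in limma). No marker of T cells or red cells had a value, and the summed B cell markers reached at most 1.52 FPKM. NKG7 (42.2 to 55.8 FPKM) and NCAM1 (11.3 to 15.1 FPKM), which also mark natural killer cells, were present in all 4 libraries. NKG7 was called higher (0.36) and NCAM1 lower (-0.28). Of the other natural killer markers, KLRD1 had no value and PRF1, at 0.14 to 0.60 FPKM, was below the filter. Of the epithelial markers, KRT8 rose from 2.32 to 6.23 FPKM (log2 fold change 1.12 and adjusted p = 1.55e-05 in limma), and KRT18 had means of 10.2 and 9.16 FPKM. EPCAM and CDH1 had no value. PECAM1, which endothelial and myeloid cells both carry, rose from 20.2 to 42.1 FPKM (log2 fold change 1.03 and adjusted p = 1.65e-05 in limma), while VWF and COL1A1 had means under 0.05 FPKM. The part of these shifts in the values of the GBP genes was not tested. Fewer cells with a transcript and less of it per cell cannot be told apart in these bulk libraries.

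GBP5, GBP3 and GBP2 rose upon CEBPG knockdown, and GBP1 and GBP4 were listed above 0 in the sh-CEBPG#3 libraries only. All members were of low abundance in control cells, where none reached 2.5 FPKM. Thus 3 of the 5 members were called higher, against 18.5% of all genes tested, and the other 2 were below the filter and were not tested. Both knockdown libraries were above both controls for these 3 genes, as for 31.5% of all genes tested. The 3 tested members had more than 1 FPKM in each sh-NC library, so they passed the filter through the control level as well.

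GBP5, a promoter of NLRP3 inflammasome assembly that also interferes with viral envelope proteins at the Golgi, was at 1.75 and 1.79 FPKM in control cells and at 8.22 and 8.80 FPKM after knockdown. Both knockdown libraries were far above both controls, and the libraries of a group lay close together. The means were 1.77 ± 0.029 and 8.51 ± 0.407 FPKM (SD, n = 2 each), a ratio of 4.80. On the log2 scale it rose by 1.78 (SE 0.10, adjusted p = 8.38e-07 in limma), rank 75 from the top of the 12142 genes tested. GBP5 was the only member past a log2 fold change of 1 and an adjusted p under 0.05, which 2.33% of all genes tested passed in this direction. Its level was higher than that of 16.0% of the tested genes in sh-NC cells and of 54.9% in sh-CEBPG#3 cells.

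GBP5 was listed by 2 RefSeq transcripts. NM_052942 was at 0.554 and 1.79 FPKM in control cells and at 6.28 and 7.28 FPKM after knockdown. NM_001134486 was at 1.20 and 0 FPKM in control cells and at 1.94 and 1.52 FPKM after knockdown. The share of NM_052942 in the gene was thus 31.7% in one control library and 100% in the other, and 76.4% and 82.7% in the knockdown libraries. The split between the transcripts differed more within the controls than between the groups, while their sum differed little within the controls.

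GBP3, a member of the GBP coat on cytosolic bacteria, was at 1.16 and 1.07 FPKM in control cells and at 3.64 and 2.80 FPKM after knockdown. The groups did not overlap, and the knockdown libraries differed more from each other than the controls did. The means were 1.12 ± 0.060 and 3.22 ± 0.594 FPKM (SD, n = 2 each), a ratio of 2.88. On the log2 scale it rose by 0.99 (SE 0.13, adjusted p = 0.000231 in limma). This lay just under a log2 fold change of 1, and with a pseudocount of 0.1 the change was 1.44.

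GBP2, a lipid-anchored member that joins GBP1 on the bacterial surface, was at 2.02 and 2.30 FPKM in control cells and at 3.62 and 3.43 FPKM after knockdown. Both knockdown libraries were above both controls, by a smaller margin than for GBP5 and GBP3. The means were 2.16 ± 0.197 and 3.53 ± 0.132 FPKM (SD, n = 2 each), a ratio of 1.63. On the log2 scale it rose by 0.52 (SE 0.11, adjusted p = 0.00362 in limma).

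GBP1, the member that binds lipopolysaccharide and starts the coat, was listed at 0 in both controls and at 0.307 and 0.332 FPKM after knockdown. GBP4, another member of the coat, was listed at 0 in both controls and at 0.0360 and 0.0333 FPKM after knockdown. Their means over all 4 libraries were 0.160 and 0.0173 FPKM, below the filter of 0.5 FPKM, and no fold is given against a group at 0. Each transcript in the table is above 0 in at least 2 of the 4 libraries, so one at 0 in both controls had to be above 0 in both knockdown libraries to be listed. In all, 262 genes were listed at 0 in both sh-NC libraries, and 170 at 0 in both sh-CEBPG#3 libraries. Among the 262 genes, 26 had a higher mean than GBP1 in sh-CEBPG#3 cells and 171 had a higher mean than GBP4, around a median of 0.0578 FPKM. Without the filter, the difference in log2(FPKM + 1) was 0.40 for GBP1 and 0.05 for GBP4. No call is read from these, since their listing at 0 in both controls had fixed the direction and the lack of overlap.

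The order of the levels changed between the groups. In sh-NC cells it was GBP2, GBP5 and GBP3, with no overlap between neighbours over the 2 libraries, and then GBP1 and GBP4, both listed at 0. In sh-CEBPG#3 cells GBP5 was first, and GBP2 and GBP3 followed without differing beyond their spread, since the values of GBP2 (3.43 and 3.62 FPKM) lay within those of GBP3 (2.80 and 3.64 FPKM). GBP1 and GBP4 came last, each below the member before it in both libraries.

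The summed level of the 5 genes reached 4.93 and 5.16 FPKM in control cells and 15.8 and 15.4 FPKM after knockdown, a ratio of means of 3.09. An exact two-sided permutation test of this sum gave p = 0.333, which is the smallest that 2 libraries against 2 allow. GBP5 made up 35.5% and 34.7% of the sum in the controls and 52.0% and 57.2% in the knockdown libraries. GBP2 made up 40.9% and 44.5% in the controls and 22.9% and 22.3% in the knockdown libraries. The share of GBP3 overlapped between the groups, with 23.5% and 20.8% against 23.0% and 18.2%. GBP1 reached 1.94% and 2.16% of the sum in the knockdown libraries, and GBP4 0.228% and 0.217%. The shares of GBP5 and GBP2 did not overlap between the groups, and the exact two-sided permutation test gave the same smallest p = 0.333 for each.

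**Figure D1:**
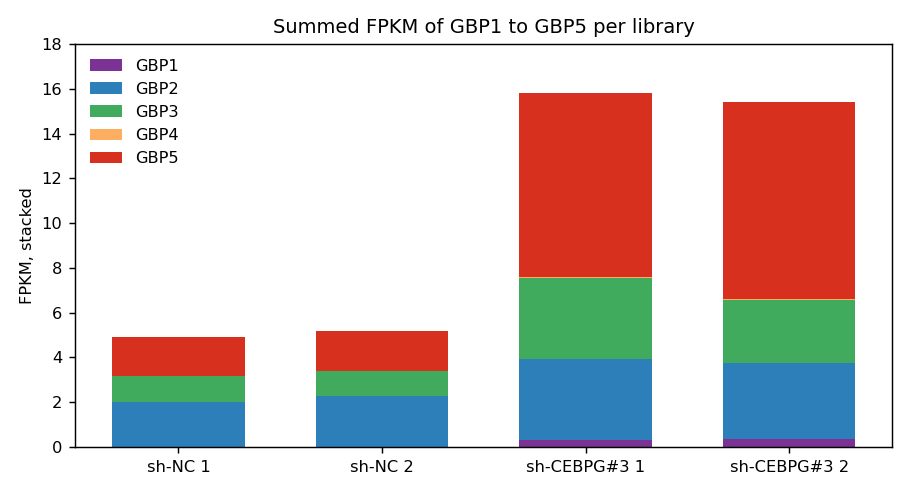
Stacked FPKM of GBP1 to GBP5 (vertical axis) in each library, with 1 colour per gene. The bars of the controls reach 5.16 FPKM at most and those of the knockdown libraries 15.8 FPKM, and GBP5 takes up 34.7% to 35.5% of the control bars and 52.0% to 57.2% of the knockdown bars.

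Paralogs of this family can share reads. Of the windows of 50 bases in the main transcript of GBP1, 3.28% also occur in GBP3 and 1.13% in GBP2, and 0.99% of those of GBP2 occur in GBP1 or GBP3, while GBP4 and GBP5 share 0 such windows with any other member. Exonic bases of GBP4 and of GBP5 lie within the span of an annotated lncRNA gene on the opposite strand, whose own exons were not compared. Among the members, shared reads thus limit the values of GBP1, GBP2 and GBP3. Whether the quantification used strand is not given in the sources used here, so the overlap limits the values of GBP4 and GBP5. Windows of GBP6, GBP7 and GBP1P1 were not compared, so reads shared with them were not tested for any member, GBP4 and GBP5 included.

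Of the 8 flanking genes tested, 4 fell, 1 rose and 3 did not pass the test, against 23.8% of all genes called lower and 18.5% higher. Their median log2 fold change was -0.24, against -0.04 for all genes tested. RBMXL1, a retrogene of an RNA-binding protein that lies next to GBP3, was at 3.06 and 3.12 FPKM in sh-NC cells and at 1.96 and 1.70 FPKM in sh-CEBPG#3 cells (log2 fold change -0.53 and adjusted p = 0.00364 in limma). With the most abundant transcript of each gene RBMXL1 was not called (-0.50, adjusted p = 0.0503). KYAT3, a kynurenine aminotransferase whose locus holds RBMXL1, had a log2 change of -0.13 (adjusted p = 0.272), which became -0.46 (adjusted p = 0.0359) with its most abundant transcript. On the other side, LRRC8B, which lies nearest to the cluster, had a log2 change of 0.21 (adjusted p = 0.148). Its paralogs LRRC8C and LRRC8D, further subunits of volume-regulated anion channels, fell by 0.35 and 0.40 on the log2 scale (adjusted p = 0.00889 and 0.00505 in limma), and LRRC8D was not called without sh-CEBPG#3 replicate 2 (-0.31) or with its most abundant transcript (-0.84, adjusted p = 0.0568). ZNF326 fell by 0.48 (adjusted p = 0.00401). PKN2, a protein kinase, had a log2 change of 0.22 (adjusted p = 0.0792) and was called with quantile normalization (0.27) and equal library totals (0.20). GTF2B, the general transcription factor TFIIB, rose by 0.33 (adjusted p = 0.0310 in limma). That call was lost without sh-NC replicate 1 (0.17), without sh-CEBPG#3 replicate 1 (0.36) or 2 (0.29), with no filter, without the variance trend and with the most abundant transcript of each gene.

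Among the genes that carry the interferon signal to the GBP promoters, IRF9 and STAT2 rose by the widest margin of those reported here. Of 14 genes tested, 7 were called higher, 1 lower and 6 did not pass, with a median log2 fold change of 0.20. Over all genes tested, 18.5% were called higher and 23.8% lower. IRF9, a DNA-binding factor of the interferon response, rose from 4.06 ± 0.0998 to 30.6 ± 1.09 FPKM (SD, n = 2 each) (log2 fold change 2.64 and adjusted p = 1.65e-08 in limma). Its partner STAT2 rose from 12.0 ± 0.161 to 36.0 ± 1.08 FPKM (log2 fold change 1.51 and adjusted p = 4.61e-07 in limma). IRF1, the factor classically needed for GBP induction by interferon-gamma, was at 8.59 and 8.38 FPKM in control cells and at 9.36 and 9.29 FPKM after knockdown. The libraries did not overlap, but the log2 fold change of 0.12 did not pass (adjusted p = 0.265 in limma). IRF8 rose by 0.44 (adjusted p = 0.000727 in limma) and IRF2 by 0.32 (adjusted p = 0.0171 in limma). The call of IRF2 was lost without sh-NC replicate 1 (0.28) or sh-CEBPG#3 replicate 1 (0.27), with no filter and with the most abundant transcript.

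Of the receptor chains, IFNGR2 rose by 0.72 (adjusted p = 0.00126 in limma) and IFNAR2 by 0.28 (adjusted p = 0.0284). IFNGR1 had a log2 change of 0.09 (adjusted p = 0.375) and IFNAR1 of 0.05 (adjusted p = 0.673). The kinase JAK2 rose by 0.34 (adjusted p = 0.0184), whereas JAK1 (-0.07) and TYK2 (0.001) did not pass. The call of IFNAR2 was lost without sh-NC replicate 1 (0.21) or sh-CEBPG#3 replicate 2 (0.21), without the variance trend (adjusted p = 0.0551) and with no filter (adjusted p = 0.0744), and its most abundant transcript had a log2 change of -0.07. The call of JAK2 was lost without either sh-NC library (0.34 each) or sh-CEBPG#3 replicate 1 (0.30), with no filter and with the most abundant transcript. SOCS1, a feedback inhibitor of JAK kinases, was the 1 gene of this list called lower, with 16.5 and 16.8 FPKM in sh-NC and 12.1 and 12.2 FPKM in sh-CEBPG#3 libraries (log2 fold change -0.42, adjusted p = 0.00190 in limma). IFNB1 had at most 0.188 FPKM in any library and was below the filter, and IFNG was not analysed here. Without sh-NC replicate 1, with no filter and with the most abundant transcript of each gene, the count of higher genes was 4.

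Other genes known for induction by interferon-gamma rose as well, and unevenly. Of 16 genes tested, 12 were called higher and none lower, with a median log2 fold change of 0.64. The shares of all genes tested were 18.5% higher and 23.8% lower. The 12 genes and the median include CXCL10, CXCL11 and BATF2, which passed the filter only through sh-CEBPG#3 cells, so their calls are no support. CXCL10, a chemokine for T cells, rose from 0.335 to 61.2 FPKM, and CXCL11, its neighbour in function, from 0.254 to 3.84 FPKM. UBE2L6, the ISG15-conjugating enzyme, had a log2 change of 1.96 (adjusted p = 7.88e-08 in limma), close to that of GBP5. The transcription factor BATF2 was at 0 and 0.0227 FPKM in control cells and at 1.77 and 1.61 FPKM after knockdown. TAP1, a subunit of the peptide transporter for antigen presentation, rose by 1.10 (adjusted p = 5.32e-05), close to GBP3. In the other direction, 1 gene, PSMB10, was lower at an unadjusted p under 0.05 in limma (log2 change -0.17, adjusted p = 0.0835). PSMB10 was called lower with quantile normalization (-0.20), with equal library totals (-0.20) and without sh-NC replicate 1 (-0.22). CIITA, the master regulator of MHC class II, had 0.949 and 0.943 FPKM as means of the groups, and PSMB8, PSMB10 and TAP2 did not pass either. PSMB8 was called higher with quantile normalization (0.26), with equal library totals (0.19) and without sh-NC replicate 2 (0.28). TAP2 was called without sh-NC replicate 1 (0.49) or sh-CEBPG#3 replicate 2 (0.56). The call of NLRC5 (0.26) was lost with any single library left out (0.23 to 0.28), with no filter and with the most abundant transcript. That of PSMB9 (0.37) was lost without sh-NC replicate 1 (0.23) or sh-CEBPG#3 replicate 2 (0.27). It was also lost with no filter, equal library totals and the most abundant transcript. With the most abundant transcript of each gene, 10 genes of this list were called higher. CXCL10, CXCL11 and BATF2 had a control mean under 0.5 FPKM, so they were tested only because they were high in sh-CEBPG#3 cells and had to differ. CXCL9, IDO1, SECTM1 and CD274 were below the filter, and CXCL9 had the same pattern as GBP1, at 0 in both controls and at 0.791 and 0.806 FPKM in the knockdown libraries.

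Of 4 related GTPases tested, 1 rose, 1 fell and 2 did not pass. These counts lie near the shares of all genes tested, which were 18.5% higher and 23.8% lower. MX2, an interferon-induced antiviral GTPase, was the gene that rose, from 0.430 to 9.04 FPKM (log2 fold change 2.82). It passed the filter only through its level in sh-CEBPG#3 cells, so its call is no support. ATL2, an atlastin that fuses membranes of the endoplasmic reticulum and has a GTPase domain like that of GBPs, fell by 0.33 (adjusted p = 0.0137 in limma), and this call was lost without sh-NC replicate 1 (-0.27) or sh-CEBPG#3 replicate 2 (-0.27) and with its most abundant transcript. ATL3 (0.14) and IRGQ (-0.16) did not pass, though ATL3 did with quantile normalization (0.19). MX1, IRGM, ATL1, GVINP1 and RNF112 were below the filter, with MX1 at no more than 0.235 FPKM in any library.

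Of the inflammasome and partner genes of GBPs, 6 of 11 tested were called higher, 2 lower and 3 did not pass. Their median log2 fold change was 0.26. Among all genes tested, 18.5% were called higher and 23.8% lower. IL1B, the cytokine released by inflammasomes, rose from 0.882 ± 0.198 to 7.76 ± 0.004 FPKM (SD, n = 2 each) (log2 fold change 2.22 and adjusted p = 4.61e-07 in limma). NINJ1, which ruptures the plasma membrane at the end of pyroptosis, rose by 0.86, and CASP1 and its adaptor PYCARD rose by 0.49 and 0.34, the latter not called without sh-CEBPG#3 replicate 1 (0.31). CASP4, the caspase that GBP coats recruit, had a log2 change of 0.09 (adjusted p = 0.404), and its substrate GSDMD of 0.12 (adjusted p = 0.444). LGALS3 (0.58) and LGALS8 (0.26), galectins that mark broken vacuoles, were called higher, and LGALS8 was not without sh-NC replicate 2 (0.24) or sh-CEBPG#3 replicate 1 (0.18), without the variance trend or with no filter. The sensor NLRP3 fell by 0.36 (adjusted p = 0.00512 in limma). PIM1, a kinase known to phosphorylate GBP1, fell from 59.7 ± 1.69 to 20.5 ± 1.30 FPKM (SD, n = 2 each) (log2 fold change -1.50 and adjusted p = 5.49e-07 in limma). AIM2 and CASP5 were listed at 0 in both controls, as GBP1 was, with at most 0.166 FPKM in a knockdown library, and APOL3, a partner of GBP1 on bacteria, reached 0.671 FPKM. With the most abundant transcript of each gene, 3 genes of this list were called higher and 1 lower. The calls lost there were those of CASP1 (0.33, adjusted p = 0.626), LGALS3 (0.79, adjusted p = 0.0734), LGALS8 (0.28, adjusted p = 0.0987) and NLRP3 (-0.53, adjusted p = 0.152).

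The enzymes that attach and process the lipid of CaaX proteins such as GBP1, GBP2 and GBP5 were also followed. Of 6 tested, 2 fell, against 23.8% of all genes tested, and none was called higher by limma at an adjusted p under 0.05. ICMT, which methylates the lipid-bearing end, was at 15.1 and 17.3 FPKM in control cells and at 6.04 and 5.70 FPKM after knockdown (log2 fold change -1.32 and adjusted p = 4.74e-06 in limma). FNTB, the beta subunit of farnesyltransferase, fell by 0.33 (adjusted p = 0.0370), a call lost with any 1 of the 4 libraries left out (-0.39 to -0.28), with no filter and with the most abundant transcript. FNTA (-0.08), PGGT1B (-0.05), RCE1 (0.22) and ZMPSTE24 (0.14) did not pass. At an unadjusted p under 0.05 in limma, 1 gene of this list was higher, RCE1 (adjusted p = 0.0528), and it was called with a minimum of 1 FPKM, quantile normalization and equal library totals.

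The genes whose pattern over the 4 libraries was nearest to the mean pattern of GBP2, GBP3 and GBP5 were FTL, ACP5, HHLA2, MVP and ME1. Likeness was measured as the Euclidean distance between log2(FPKM + 1) values centred on each gene's mean, which was 0.022 for FTL and 0.046 for ME1. With 2 groups of 2 libraries this measure mainly finds genes with a like difference in log2(FPKM + 1), here 1.06 to 1.11. Their ratios in FPKM were not alike. ACP5 went from 0.088 and 0.131 FPKM in controls to 1.41 and 1.33 FPKM after knockdown, and MVP from 8.39 and 8.24 to 19.8 and 18.5 FPKM. ACP5 and HHLA2 were under 0.5 FPKM in both controls, so they passed the filter only through sh-CEBPG#3 cells. GBP3 lay at a distance of 0.19 from the mean pattern of the 3 members, GBP2 at 0.58 and GBP5 at 0.69. FTL, the ferritin light chain, was at 1418 and 1471 FPKM in sh-NC cells and at 3143 and 2971 FPKM in sh-CEBPG#3 cells, a level far above that of any GBP gene.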

How the data were processed

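RNA-seq of MV4-11 cells (2 sh-NC and 2 sh-CEBPG#3 libraries) was analysed. According to the study's methods and the submitters' processing notes, the authors removed poor reads, aligned the rest to hg38 with HISAT2 2.0.5 and deposited FPKM values, 1 per RefSeq transcript and library. The program that computed FPKM is not given in the sources used here. Of 28780 listed transcripts, 28581 had values and were summed by symbol. The study tested counts, which FPKM values do not carry. Here log2(FPKM + 1) was modelled with limma 3.58.1 (R 4.3.3, moderated with a mean-variance trend and without a block), with a mean of at least 0.5 FPKM as filter, and checked on simulated data. Depth is unknown: among 565 genes with values under 0.06 FPKM in both sh-NC libraries, at most 0.708% shared 1 ratio between them, so no steps of whole reads were seen, and no interval or floor is given.

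The members and the gene lists were chosen with earlier results of these data known, and list counts are descriptions. Genes named are the members, CEBPG, IRF1, interferon receptors, the flanking genes, list genes called with an absolute log2 fold change above 1, and the 5 nearest patterns. Other list genes named with values were added after their values were seen, and 1 gene of the signalling list is not reported here and is left out of its counts. Motifs, positions and shared windows came from RefSeq and GENCODE (GRCh38) with Python 3.11.15. Alternatives were other pseudocounts, filters and scalings, no trend, a replicate block, the most abundant transcript of a gene and each library left out.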

Additional observations from a re-analysis of the deposited data

How the results depend on the processing

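GBP2, GBP3 and GBP5 stayed higher at an adjusted p under 0.05 in limma under each of the 13 alternatives. Their log2 fold changes lay between 0.50 and 0.71 for GBP2, 0.97 to 1.51 for GBP3 and 1.76 to 2.26 for GBP5 over 9 alternatives, and from 0.46 to 0.58, 0.84 to 1.13 and 1.73 to 1.82 with each library left out, where the lone library of a group is assumed to vary like the others. The highest adjusted p was 0.0355 for GBP2, 0.0131 for GBP3 and 0.0144 for GBP5, each with the most abundant transcript of a gene. With no filter, GBP1 (0.40) and GBP4 (0.05) had values, but their listing had fixed the direction, so no call is read from them. Other settings gave no value for GBP1 and GBP4, which stayed below the filter.

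Of the counts called higher, that of related GTPases went from 1 to 2 with quantile normalization. That of flanking genes went from 1 to 2 with quantile normalization and equal totals, to 0 with no filter, without the trend and with the most abundant transcript, and was 0 to 1 when single libraries were left out. That of signalling genes went from 7 to 4 with no filter and with the most abundant transcript, and was 4 to 6 when single libraries were left out. That of inflammasome and partner genes went from 6 to 3 with the most abundant transcript. That of lipid-attaching enzymes went from 0 to 1 with a minimum of 1 FPKM, quantile normalization and equal totals. That of all genes went from 2244 to 1329 with the most abundant transcript. What caused these shifts was not tested. The share of higher genes among those called was 43.8%, and 37.95% to 50% with a library left out.

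Same-numbered libraries deviated with a correlation of 0.061 across genes, from which a shared batch or infection cannot be told. With the replicate block, 3 GBP genes were called higher as without it, and 2088 of all genes against 2244. Among list genes it ended the calls of IFNAR2 (adjusted p = 0.0522), LGALS8 (0.0736) and NLRC5 (0.0766), and TAP2 became called (0.0311). Since the values carry no counts, low genes such as GBP1 and GBP4 could not be weighed by their depth.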
